A study of Homo sapiens with 12 samples.

Results

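Transcripts of 10 genes for cell adhesion to the extracellular matrix were followed in HepG2, an established human hepatoma cell line: fibronectin (FN1), the laminin chains LAMA5, LAMB1 and LAMC1, the integrin α subunits ITGA2, ITGA3, ITGA5 and ITGA6, and the integrin β subunits ITGB1 and ITGB5. The genes were chosen by symbol with earlier results of these data known, so counts of them against the share of all genes are descriptions. The same holds for the lists of other matrix and adhesion genes. All 10 of 10 were found among the 35984 genes of the table. Each group had 3 RNA sequencing libraries. The DKD cells carried shRNA cassettes against both macroH2A1 and macroH2A2, variants of histone H2A that carry an extra macro domain, and the CTL cells carried control shRNAs; the knock-down was integrated stably by retroviral transduction. Both lines were kept overnight in 0.5% serum and then received the inflammatory cytokine TNFα for 24 hours at 20 ng/mL, or the same volume of its PBS and BSA vehicle, called untreated here. The 4 groups are therefore DKD TNFα, DKD untreated, CTL TNFα and CTL untreated. Whether the 3 libraries of a group are separate cultures is not stated, so p-values here reflect the spread among libraries, which could be technical alone. Whether each line is 1 pool of transduced cells is not stated either, and differences between the lines cannot be told apart from effects of the knock-down.

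Integrins are receptors made of 1 α and 1 β subunit that span the cell membrane and connect matrix proteins outside the cell to actin-binding proteins inside it. Fibronectin is a large glycoprotein that hepatocytes secrete into plasma and that many cells assemble into fibrils. Laminins are trimers of an α, a β and a γ chain and form the network of basement membranes. ITGB1 is the common β partner of ITGA2, ITGA3, ITGA5 and ITGA6, whereas ITGB5 pairs with ITGAV.

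Library totals ran from 30955080 estimated counts in CTL untreated 2 to 42094144 in DKD untreated 2, and the other 10 libraries held at least 37780825. In DKD cells MACROH2A1 averaged 55.5 ± 10.1 CPM with TNFα and 46.2 ± 12.2 CPM untreated, against 268 ± 11.04 and 236 ± 27.4 CPM in CTL cells (SD, n = 3 each; CPM, the estimated counts of a library scaled to a common total with TMM factors). MACROH2A2 averaged 3.96 ± 0.68 CPM with TNFα and 5.11 ± 0.79 CPM untreated in DKD cells, against 46.4 ± 5.09 and 57.8 ± 2.85 CPM in CTL cells. NFKBIA and RELB, targets of the TNFα-activated factor NF-kB, rose by 2.20 and 2.79 on the log2 scale with TNFα in DKD cells, and by 2.21 and 3.30 in CTL cells (edgeR, adjusted p at most 0.000154). The 8 hepatocyte markers summed to 16293 to 37471 CPM over the libraries, while 7 of 8 fibroblast, 4 of 5 endothelial and 4 of 6 leukocyte markers stayed under 1 CPM in every library, with THY1, CD3E and MS4A1 at 0 throughout. DKD untreated 1 and DKD TNFα 1 stood apart on the first principal component. They were at -83.7 and -53.9, against -18.2 to 41.5 for the other 10 libraries. In the CTL groups library 1 was the lowest too. It was at -18.2 against 23.3 and 19.6 untreated, and at 6.38 against 38.7 and 41.5 with TNFα. Calls that change with the libraries numbered 2 and 3 alone are therefore given with the results. Among all genes these libraries alone gave 5.66% called higher and 2.77% lower with TNFα in DKD cells and 7.88% and 5.91% in CTL cells, and 8.58% higher and 6.14% lower in DKD than in CTL cells with TNFα and 7.16% and 5.13% without it.

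Levels scaled to transcript length spanned orders of magnitude among the 10 genes. FN1 stood first in every group, at 1250 ± 34.7 CPM per kilobase in DKD TNFα, 559 ± 49.7 in DKD untreated, 945 ± 25.5 in CTL TNFα and 433 ± 45.7 in CTL untreated cells (SD, n = 3 each). ITGB1 and then LAMB1 came next in all 4 groups. ITGB1 had 98.7 ± 7.29, 86.2 ± 2.54, 123 ± 12.3 and 105 ± 5.43 CPM per kilobase in the same order of groups, and LAMB1 91.4 ± 1.80, 76.4 ± 1.47, 101 ± 0.52 and 93.6 ± 2.49. LAMC1, ITGA6, ITGB5, LAMA5 and ITGA2 formed a middle band of 8.47 to 40.7 CPM per kilobase in group means. ITGA3, at 0.31 to 0.73, and ITGA5, at 0.046 to 0.15 CPM per kilobase, were last in that order in every group. The ranges of neighbours overlapped for LAMA5 and ITGA2 in DKD TNFα cells, for ITGB5 and LAMA5 in DKD untreated cells and for LAMC1 and ITGA6 in CTL untreated cells, and in CTL TNFα cells those of LAMC1, ITGA6, ITGA2 and ITGB5 overlapped from one to the next, so the order of these genes is not resolved there. The scale uses the longest coding transcript of each gene in GENCODE v29, and dividing by all exonic bases instead moved the order only among ITGA6, ITGA2 and ITGB5 in CTL TNFα cells.

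**Figure D1:**
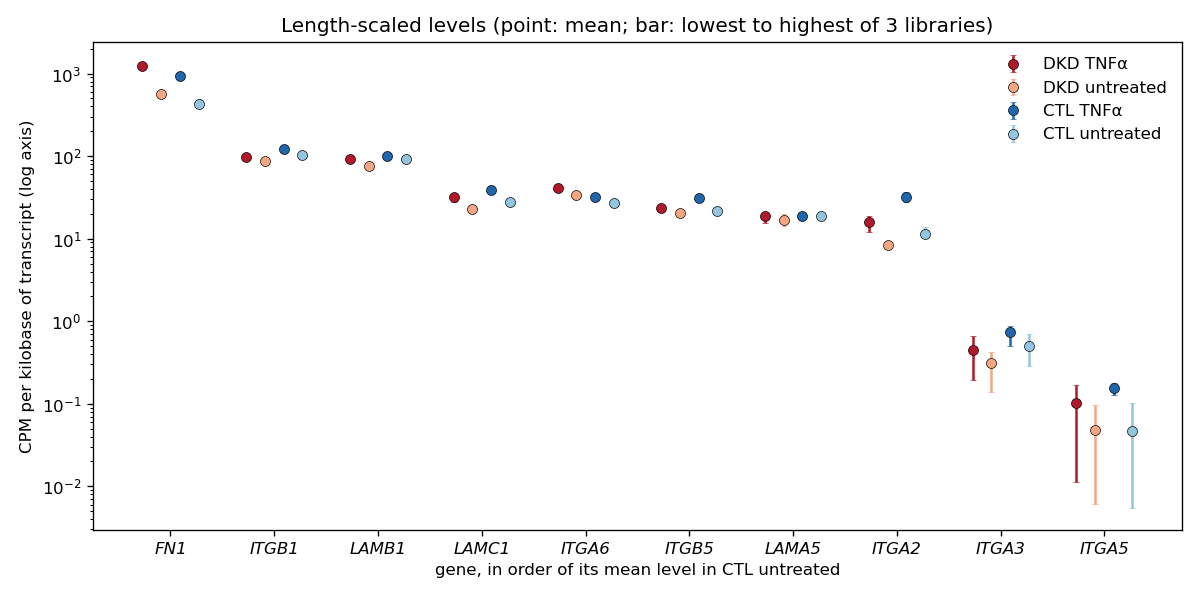
Mean level of each gene in CPM per kilobase of its longest coding transcript on a log axis, with bars from the lowest to the highest of 3 libraries, for DKD TNFα, DKD untreated, CTL TNFα and CTL untreated cells. FN1 lies above every other gene in all groups, and ITGA3 and ITGA5 lie lowest.

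TNFα raised fibronectin, one laminin chain and one collagen-binding integrin subunit in both lines. In CTL cells 4 of the 10 genes rose (FN1, LAMC1, ITGA2 and ITGB5) and none fell, against 1.90% of the 16118 genes tested that rose. In DKD cells 4 of 10 rose (FN1, LAMB1, LAMC1 and ITGA2) and none fell, against 1.54% of genes tested. Both counts are descriptions, as the genes were chosen with earlier results known. All 10 fitted changes were positive in each line, with a median of 0.37 on the log2 scale in DKD cells and 0.49 in CTL cells, against medians over all genes tested of -0.0082 and 0.00084; without ITGA5, whose entry into the test is described with the filter, they were 0.28 and 0.46 over 9 genes. The TNFα and untreated libraries did not overlap, with TNFα above, for 7 of 10 genes in DKD cells and 8 of 10 in CTL cells, against 7.03% and 13.4% of genes tested, and without ITGA5 for 7 of 9 genes in each line. A gene was called changed at a Benjamini-Hochberg adjusted p under 0.05 in edgeR's quasi-likelihood test over all 16118 genes. All 10 genes passed the filter on low counts, but ITGA5 did so through CTL TNFα, where 3 of 3 libraries reached the required 0.244 CPM, against 2, 1 and 1 libraries in DKD TNFα, DKD untreated and CTL untreated cells.

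**Figure D2:**
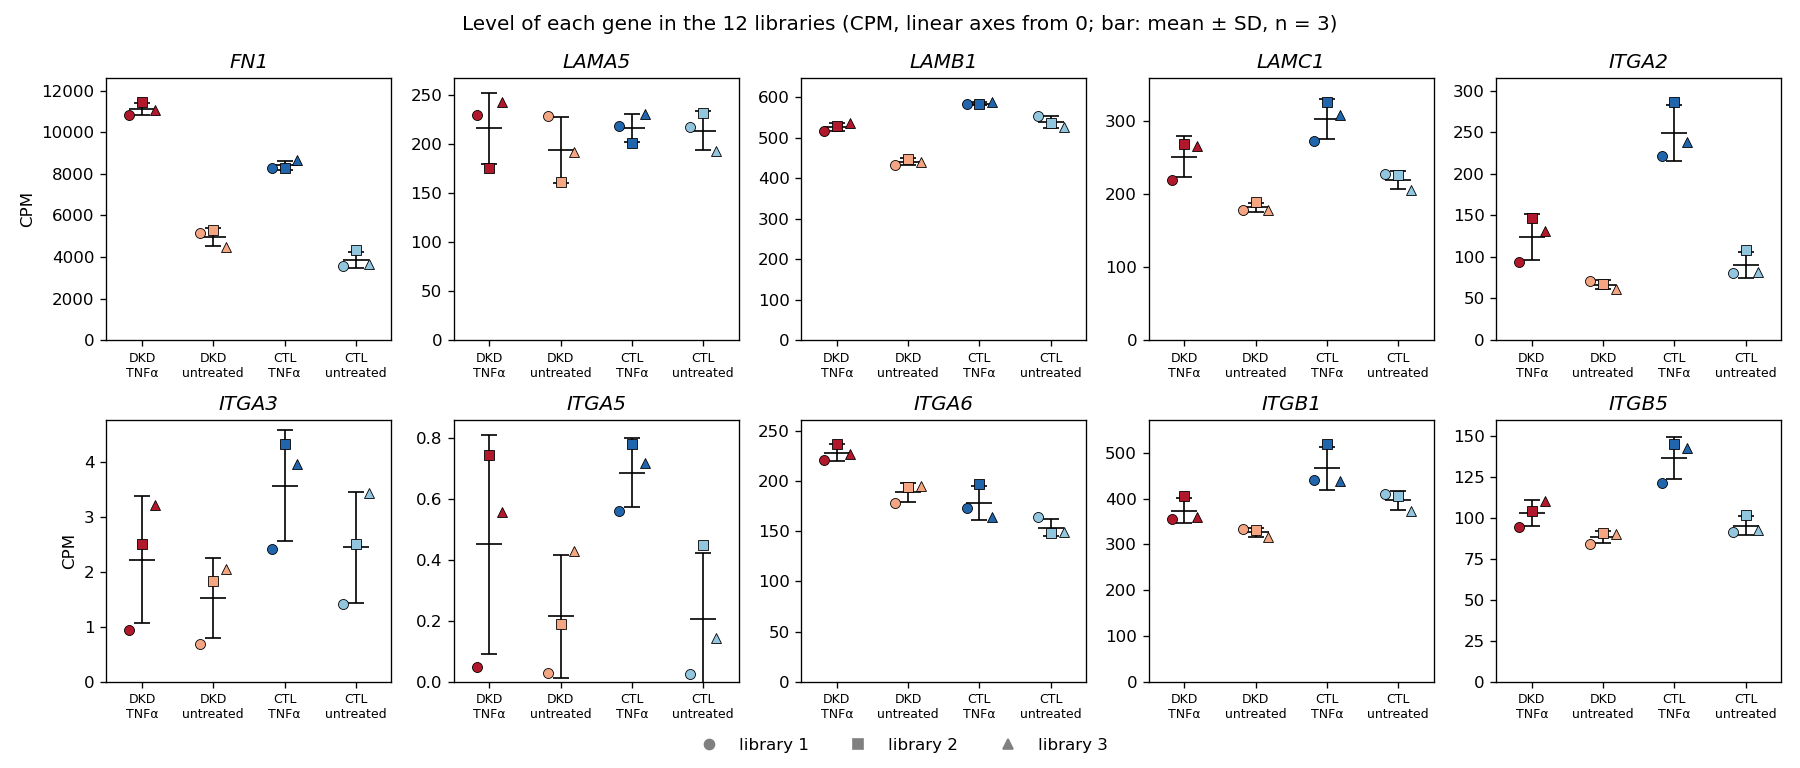
Level of each gene in CPM in every library, on linear axes from 0, with bars for the mean ± SD of 3 libraries; symbols mark the library number. For FN1 and ITGA2 every TNFα library lies above the untreated libraries of its line. ITGA3 is spread widely within each group, and ITGA5 within each group except CTL TNFα.

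FN1, on the minus strand of chromosome 2 (GRCh38 215360440 to 215436172, GENCODE v29), had the highest counts. It measured 10841, 11454 and 11086.5 CPM in the DKD TNFα libraries, against 5166, 5288 and 4468 CPM in the DKD untreated libraries. In CTL cells it measured 8279.7, 8290.3 and 8678.5 CPM with TNFα, against 3578, 4323 and 3667 CPM untreated. The 4 groups did not overlap at all, and FN1 transcripts alone took 1.07% to 1.16% of all counts in DKD TNFα cells, against 0.352% to 0.436% in CTL untreated cells. The rise with TNFα was 2.24-fold in DKD cells (log2 1.16, SE 0.08, adjusted p = 7.11e-05) and 2.18-fold in CTL cells (log2 1.13, SE 0.08, adjusted p = 6.96e-05). Between libraries of the same number the ratio was 2.10, 2.17 and 2.48 in DKD cells and 2.31, 1.92 and 2.37 in CTL cells. Both calls held without each of the 12 libraries in turn. In such bulk libraries more transcript per cell and more cells with the transcript cannot be told apart.

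The bases upstream of FN1, ITGA2 and LAMC1, the 3 genes that rose with TNFα in both lines, are shown with short motifs in capitals so that their promoters can be compared. They come from the RefSeq promoter table (GRCh38.p14), run 5′ to 3′ on the gene's strand and end before the first base that GENCODE v29 places in an exon. The FN1 stretch is chr2:215436173-215436318 (minus strand), the ITGA2 stretch chr5:52989102-52989325 (plus strand), and the LAMC1 stretch chr1:183023170-183023419 (plus strand). Capitals mark the cyclic AMP response element TGACGTCA and the Sp1 box GGGCGG on either strand, and Sp1 boxes may overlap each other.
FN1: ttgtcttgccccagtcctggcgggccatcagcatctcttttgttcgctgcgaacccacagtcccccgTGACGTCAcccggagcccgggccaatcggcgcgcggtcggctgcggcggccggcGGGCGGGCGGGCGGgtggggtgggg
ITGA2: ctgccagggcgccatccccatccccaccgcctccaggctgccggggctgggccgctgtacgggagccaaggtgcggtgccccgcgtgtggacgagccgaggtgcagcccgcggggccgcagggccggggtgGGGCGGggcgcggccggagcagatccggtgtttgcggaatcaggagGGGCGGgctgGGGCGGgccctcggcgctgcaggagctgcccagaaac
LAMC1: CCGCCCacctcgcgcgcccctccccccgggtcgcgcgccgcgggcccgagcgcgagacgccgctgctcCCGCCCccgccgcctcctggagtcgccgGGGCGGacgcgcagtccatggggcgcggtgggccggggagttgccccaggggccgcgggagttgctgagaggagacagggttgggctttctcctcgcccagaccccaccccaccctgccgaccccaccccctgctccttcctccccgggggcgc
FN1 held the only TGACGTCA among the 9 genes that matched the table, 183 to 176 bases before its RefSeq start, a motif found in 1.65% of the 35116 RefSeq windows of 250 bases. The 146 bases shown for FN1 hold 3 Sp1 boxes, the 224 of ITGA2 hold 3 and the 250 of LAMC1 hold 3, and GGGCGG stood in 42.6% of all windows. The AP-1 motif TGANTCA, found in 6.57% of all windows, was in no window of these 9 genes, and the kB motif of NF-kB, found in 9.96%, was in windows of ITGA5 and ITGB1 only. All 9 genes with a window, those not called with TNFα included, held at least 1 Sp1 box in at least 1 window. ITGA6, ITGB1 and ITGB5 had 2, 2 and 3 windows, and not every one held a box. This count by gene is therefore not comparable with the share by window. The windows of FN1, ITGA2 and LAMC1 were 76.4%, 76.4% and 79.6% G and C, against a median of 58.0% over all windows. ITGA3 had no entry.

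Of the laminin chains, which form the trimer of α5, β1 and γ1 chains, LAMC1 rose in both lines, LAMB1 rose in DKD cells and LAMA5 was not called. LAMC1, the γ1 chain common to most laminins (chromosome 1, 183023460 to 183145592), measured 219, 268 and 267 CPM in DKD TNFα libraries, against 178, 189 and 178 CPM in DKD untreated libraries. It measured 272, 326 and 309 CPM in CTL TNFα libraries, against 227, 226 and 206 CPM in CTL untreated libraries. The groups did not overlap in either line, and the rise was 1.38-fold in each (log2 0.47, SE 0.10, adjusted p = 0.0343 in DKD cells; log2 0.46, SE 0.10, adjusted p = 0.0286 in CTL cells). LAMB1, the β1 chain (chromosome 7, 107923799 to 108003255), measured 516, 528 and 537 CPM in DKD TNFα libraries, against 432, 449 and 441 CPM in DKD untreated libraries. In CTL cells it measured 583, 583 and 588 CPM with TNFα, against 555, 537 and 527 CPM untreated. TNFα libraries were higher without overlap in both lines, and the change was called in DKD cells (log2 0.26, SE 0.05, adjusted p = 0.0297) and not in CTL cells (log2 0.12, SE 0.05, adjusted p = 0.346). LAMA5, the α5 chain (chromosome 20, 62307955 to 62367312), measured 175 to 243 CPM in DKD TNFα, 161 to 229 in DKD untreated, 201 to 230 in CTL TNFα and 192 to 232 in CTL untreated libraries, and the 4 ranges overlapped.

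The laminin calls were close to the threshold. With only the groups compared in the fit, the calls in DKD cells were lost (LAMB1 adjusted p = 0.397, LAMC1 adjusted p = 0.253). LAMC1 in CTL cells kept its call only without DKD untreated 1, DKD untreated 2, CTL TNFα 1 or DKD TNFα 1, and without each of the other 8 libraries its adjusted p was 0.0531 to 0.187. In DKD cells LAMC1 kept its call without CTL TNFα 1 or DKD TNFα 1, and LAMB1 without CTL untreated 1 or DKD TNFα 1; without each of the other 10 libraries the adjusted p was 0.0522 to 0.201 for LAMC1 and 0.0555 to 0.201 for LAMB1.

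Among the integrin α subunits, ITGA2 rose in both lines and the others were not called. ITGA2, whose heterodimer with ITGB1 is a collagen receptor that also binds laminin (chromosome 5, 52989326 to 53094779), measured 93.7, 147 and 131 CPM in DKD TNFα libraries, against 71.2, 67.8 and 60.9 CPM in DKD untreated libraries. In CTL cells it measured 221, 286 and 239 CPM with TNFα, against 80.9, 108 and 81.8 CPM untreated. No group overlapped its untreated counterpart, and DKD TNFα 1 was the lowest of the 6 treated libraries. The rise was 1.86-fold in DKD cells (log2 0.89, SE 0.17, adjusted p = 0.0269) and 2.75-fold in CTL cells (log2 1.46, SE 0.18, adjusted p = 0.00143). By library number the ratio was 1.32, 2.17 and 2.15 in DKD cells and 2.73, 2.64 and 2.92 in CTL cells. The call in CTL cells held without each library in turn. In DKD cells it was lost with only the groups compared in the fit (ITGA2 adjusted p = 0.19) and without CTL untreated 3, DKD untreated 2, DKD untreated 3, DKD TNFα 2 or DKD TNFα 3 (adjusted p of 0.0518, 0.0973, 0.135, 0.123 and 0.126), and with the libraries numbered 2 and 3 alone the log2 change was 1.101 (adjusted p = 0.00332).

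ITGA6, a laminin receptor subunit that pairs with ITGB1 or ITGB4 (chromosome 2, 172427354 to 172506282), measured 221, 237 and 227 CPM in DKD TNFα libraries, against 178, 194 and 195 CPM in DKD untreated libraries. It measured 173, 197 and 164 CPM in CTL TNFα libraries, against 164, 148 and 149 CPM in CTL untreated libraries. The ranges did not overlap in either line, with the lowest CTL TNFα library at 163.98 and the highest CTL untreated library at 163.97 CPM, and the fitted changes missed the threshold (log2 0.28, SE 0.08, adjusted p = 0.18 in DKD cells; log2 0.21, SE 0.08, adjusted p = 0.268 in CTL cells). ITGA3, another laminin receptor subunit, had 38 to 132 counts in DKD TNFα, 25 to 86 in DKD untreated, 99 to 177 in CTL TNFα and 58 to 143 in CTL untreated libraries. Its groups overlapped, with the libraries numbered 1 lowest in each group, and the fitted changes of 0.54 in each line had SEs of 0.51 in DKD and 0.50 in CTL cells. ITGA5, the α subunit of the classical fibronectin receptor, had 2, 31 and 23 counts in DKD TNFα libraries, against 1, 8 and 18 in DKD untreated libraries. It had 23, 32 and 30 counts in CTL TNFα libraries, against 1, 14 and 6 in CTL untreated libraries. In 3 of the 4 groups library 1 held 1 or 2 counts. The fitted changes of 1.04 (SE 0.95, adjusted p = 0.889) in DKD and 1.80 (SE 0.96, adjusted p = 0.46) in CTL cells missed the threshold.

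Of the β subunits, ITGB5 rose in CTL cells. ITGB5, whose heterodimer with ITGAV binds vitronectin (chromosome 3, 124761948 to 124901418), measured 94.1, 104 and 110.1 CPM in DKD TNFα libraries, against 83.9, 90.8 and 90.3 CPM in DKD untreated libraries. In CTL cells it measured 121, 145 and 143 CPM with TNFα, against 91.4, 102 and 92.4 CPM untreated. TNFα libraries were higher without overlap in both lines; the change was called in CTL cells (log2 0.52, SE 0.09, adjusted p = 0.0142) and not in DKD cells (log2 0.22, SE 0.09, adjusted p = 0.438). The call was lost without CTL untreated 1, CTL untreated 3, CTL TNFα 2 or CTL TNFα 3 (adjusted p of 0.0687, 0.107, 0.103 and 0.0702). ITGB1 (chromosome 10, 32900319 to 33005792) measured 356, 405 and 359 CPM in DKD TNFα libraries, against 332, 331 and 315 CPM in DKD untreated libraries. It measured 440, 519 and 438 CPM in CTL TNFα libraries, against 410.3, 405 and 372 CPM in CTL untreated libraries. Its TNFα libraries were higher without overlap in both lines, but the changes of 0.19 (SE 0.08, adjusted p = 0.456) in DKD cells and 0.24 (SE 0.08, adjusted p = 0.212) in CTL cells missed the threshold. With the library number as a block the change in CTL cells was 0.23 (adjusted p = 0.0325), where 7.94% of all genes were called higher.

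**Figure D3:**
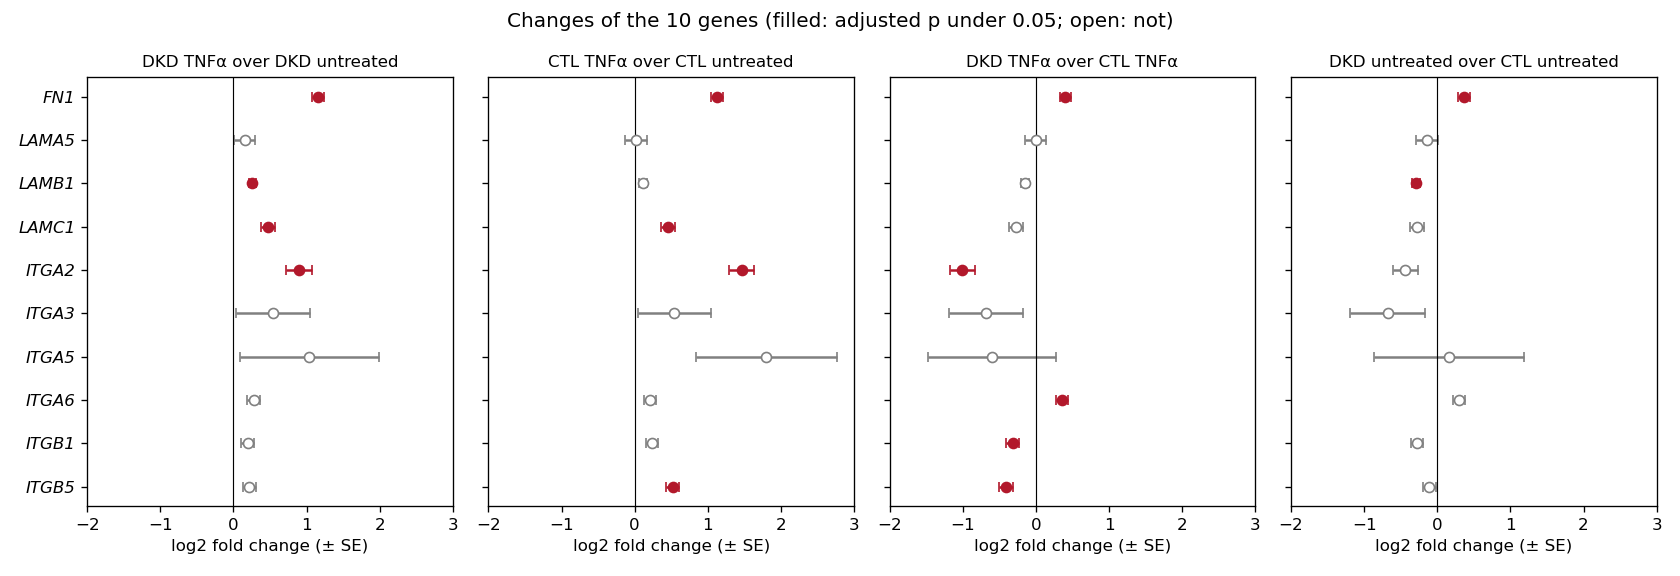
Log2 fold change of each gene with its standard error from edgeR in 4 comparisons, filled where the adjusted p was under 0.05. TNFα changes (left pair) all lie at or above 0. In DKD over CTL cells (right pair) FN1 and ITGA6 lie above 0. The laminin γ1 and β1 chains and ITGA2, ITGA3, ITGB1 and ITGB5 lie below it. LAMA5 lies at or below 0, and ITGA5 lies above 0 untreated and below it with TNFα, with a wide standard error.

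In untreated cells the knock-down line had more fibronectin and less laminin β1 transcript. FN1 was 1.29-fold higher in DKD untreated cells (log2 0.37, SE 0.08, adjusted p = 0.0239), 1 of 10 genes called higher against 3.13% of genes tested. LAMB1 was 0.816-fold in DKD untreated relative to CTL untreated cells (log2 -0.29, SE 0.05, adjusted p = 0.00694), 1 of 10 called lower against 1.86% of genes tested. The libraries of the lines did not overlap for 7 genes: FN1 and ITGA6 lay above in DKD untreated cells (2 of 10, against 11.3% of genes tested), and LAMB1, LAMC1, ITGA2, ITGB1 and ITGB5 lay below (5 of 10, against 10.4%). With the library number as a block 7 of the 10 genes were called, 2 higher and 5 lower, against 9.17% and 7.31% of all genes: FN1 and LAMB1, and also ITGA6 (log2 0.29, adjusted p = 0.0231), LAMC1 (log2 -0.28, adjusted p = 0.0357), ITGA2 (log2 -0.42, adjusted p = 0.0411), ITGA3 (log2 -0.72, adjusted p = 0.0413) and ITGB1 (log2 -0.28, adjusted p = 0.0113). Without the block ITGA6 had an adjusted p of 0.0731 and the other 4 genes of 0.0977 to 0.58. With the libraries numbered 2 and 3 alone ITGA6 (adjusted p = 0.0185) and ITGA2 (adjusted p = 0.0398) were called too. The LAMB1 call held without each library in turn. The FN1 call was lost without CTL untreated 1, CTL untreated 3, DKD untreated 1 or DKD untreated 2 (adjusted p of 0.0963, 0.113, 0.0538 and 0.092) and with the libraries numbered 2 and 3 alone (log2 0.29, adjusted p = 0.0985). With only the 2 groups compared in the fit neither call remained (FN1 adjusted p = 0.182, LAMB1 adjusted p = 0.0958).

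In TNFα-treated cells the lines differed in 5 of the 10 genes. FN1 was 1.32-fold higher in DKD TNFα cells (log2 0.40, SE 0.08, adjusted p = 0.0127) and ITGA6 1.28-fold higher (log2 0.36, SE 0.08, adjusted p = 0.0264), 2 of 10 called higher against 3.94% of genes tested. ITGA2 was 0.498-fold in DKD TNFα relative to CTL TNFα cells (log2 -1.005, SE 0.17, adjusted p = 0.00528), the largest difference among the called genes. ITGB5 was 0.753-fold (log2 -0.41, SE 0.09, adjusted p = 0.0238) and ITGB1 0.801-fold (log2 -0.32, SE 0.08, adjusted p = 0.0493), so that 3 of 10 were called lower against 2.30% of genes tested. For ITGA2 every ratio between libraries of the same number was low, at 0.424, 0.514 and 0.548. The same 7 genes as in untreated cells did not overlap between the lines, 2 above in DKD TNFα cells (13.2% of genes tested) and 5 below (12.1%). Under the block 8 of 10 genes were called, 2 higher and 6 lower, against 10.6% and 8.79% of all genes, the additional ones being LAMB1 (log2 -0.15, adjusted p = 0.047), LAMC1 (log2 -0.27, adjusted p = 0.0347) and ITGA3 (log2 -0.79, adjusted p = 0.02); without it their adjusted p was 0.127, 0.147 and 0.575. With the libraries numbered 2 and 3 alone LAMC1 was called as well (adjusted p = 0.0431). LAMA5 was at -0.0056 (SE 0.15) and ITGA5 at -0.60 (SE 0.88).

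Only the ITGA2 difference held without each library in turn. With only the groups compared in the fit ITGA6 (adjusted p = 0.0686), ITGB1 (adjusted p = 0.13) and ITGB5 (adjusted p = 0.077) lost their calls. The FN1 call was lost without CTL TNFα 1, CTL TNFα 2 or DKD TNFα 2 (adjusted p of 0.0528, 0.0569 and 0.0502), and that of ITGB5 without CTL TNFα 2, CTL TNFα 3, DKD TNFα 1 or DKD TNFα 2 (adjusted p of 0.112, 0.1, 0.0927 and 0.0747). ITGA6 lost its call without any of the 6 TNFα libraries other than CTL TNFα 2 and without CTL untreated 3 (adjusted p of 0.0506 to 0.116), and ITGB1 kept its call only without DKD untreated 1 or DKD TNFα 2 (adjusted p of 0.0617 to 0.171 without each of the others, and 0.0552 with the libraries numbered 2 and 3 alone).

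The difference between the TNFα effects of the lines was tested as the effect in DKD cells minus that in CTL cells. None of the 10 genes passed the threshold, nor did any of the 16118 genes tested (0%) in edgeR, of which 184 had an unadjusted p under 0.05; DESeq2 called 5 genes, none of them among the 10. ITGA2 had a difference of -0.57 (SE 0.24, unadjusted p = 0.0404, adjusted p = 1.0) and ITGB5 of -0.30 (SE 0.13, unadjusted p = 0.0419, adjusted p = 1.0). For FN1 the difference was 0.036 with an SE of 0.11. The calls of LAMB1 in DKD cells only and of ITGB5 in CTL cells only are thus not shown to be differences between the lines.

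The proportions between the genes shifted with these changes. ITGA2 made up 27.4% ± 3.77 of the summed length-scaled level of the 4 α genes in DKD TNFα and 20.0% ± 2.08 in DKD untreated cells, against 49.2% ± 1.69 in CTL TNFα and 29.1% ± 4.12 in CTL untreated cells (SD, n = 3 each). The 3 CTL TNFα libraries, at 47.2% to 50.1%, lay above all 9 others, of which the highest was 33.7%. ITGA6 took most of the remainder, at 71.6%, 79.2%, 49.5% and 69.5% in the same order of groups, while ITGA3 made up at most 1.87% and ITGA5 at most 0.272% in any library. The laminin-binding ITGA6 and the collagen-binding ITGA2 were thus at a ratio of ITGA2 over ITGA6 of 0.386 in DKD TNFα and 0.253 in DKD untreated, against 0.996 in CTL TNFα and 0.422 in CTL untreated cells. FN1 over LAMB1, per kilobase, was 13.7 ± 0.34 in DKD TNFα, 7.31 ± 0.65 in DKD untreated, 9.32 ± 0.20 in CTL TNFα and 4.63 ± 0.53 in CTL untreated cells, and no library of one group fell within the range of another. The 4 α genes together reached 0.577, 0.493, 0.521 and 0.377 of the ITGB1 level in the same order, and the CTL untreated libraries were the 3 lowest. The sum leaves out other expressed α subunits, such as ITGAV (group means of 159 to 706 CPM) and ITGA1 (32.7 to 48.5 CPM). The percentages are therefore not shares of all α subunits. These ratios are descriptions, since 3 libraries against 3 cannot reach an exact two-sided permutation p under 0.10.

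**Figure D4:**
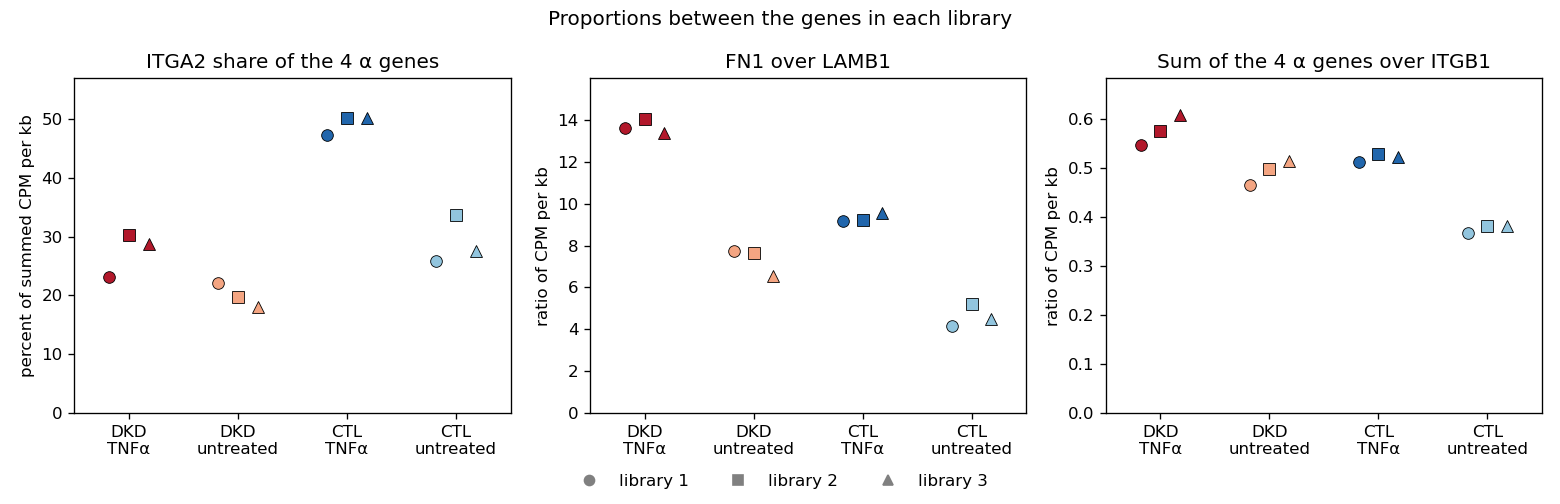
ITGA2 as a percentage of the summed CPM per kilobase of ITGA2, ITGA3, ITGA5 and ITGA6, FN1 over LAMB1, and the sum of the 4 α genes over ITGB1, in every library. CTL TNFα cells have the highest ITGA2 share (47.2% to 50.1%), and FN1 over LAMB1 is highest in DKD TNFα cells (13.4 to 14.04).

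Among the other 20 integrin subunits, 15 of which were tested, 3 rose with TNFα in CTL cells (ITGAV, ITGAM and ITGA10) and 2 in DKD cells (ITGAV and ITGAM), against 1.54% of genes tested that rose in DKD cells and 1.90% in CTL cells. None fell, against 0.254% of genes tested in DKD cells and 0.726% in CTL cells. ITGAV, the α partner of ITGB5 and a receptor subunit for fibronectin and vitronectin, measured 567, 836 and 716 CPM in DKD TNFα libraries, against 202, 271 and 229 CPM in DKD untreated libraries. In CTL cells it measured 495, 656 and 476 CPM with TNFα, against 139, 188 and 149 CPM untreated. The treated and untreated ranges were far apart, with log2 changes of 1.60 (SE 0.18, adjusted p = 0.00108) in DKD cells and 1.77 (SE 0.18, adjusted p = 0.000629) in CTL cells, both held without each library in turn. ITGAM, the α subunit of a leukocyte integrin, had 64, 167 and 183 counts in DKD TNFα libraries, against 0, 0 and 3 in DKD untreated libraries. It had 108, 132 and 151 counts in CTL TNFα libraries, against 1, 0 and 2 in CTL untreated libraries, and was called in both lines (adjusted p = 0.000828 in DKD and 0.000931 in CTL cells). It entered the test through its TNFα libraries alone, so its calls are a description; without it 1 of 14 rose in DKD cells and 2 of 14 in CTL cells. ITGA10, a collagen receptor subunit, averaged 6.77 ± 1.74 CPM in CTL TNFα and 1.64 ± 0.54 CPM in CTL untreated cells (log2 2.05, SE 0.33, adjusted p = 0.00716). In DKD cells it averaged 5.14 ± 1.66 CPM with TNFα and 2.04 ± 0.38 CPM untreated (log2 1.33, SE 0.32, adjusted p = 0.0704; 0.00794 under the block and 0.00319 with the libraries numbered 2 and 3 alone). The summed leukocyte markers were 5.72 to 8.87 CPM in DKD TNFα, 7.87 to 11.9 in DKD untreated, 7.51 to 12.3 in CTL TNFα and 9.29 to 15.6 in CTL untreated libraries, and their TNFα and untreated ranges overlapped in each line. Between the lines no other integrin subunit was called, with or without TNFα. Under the block the counts became 4 of 15 higher and 1 lower with TNFα in each line, against 5.55% and 2.13% of all genes in DKD cells and 7.94% and 4.7% in CTL cells. ITGAM is among the higher ones in each line, so these counts too are descriptions. Between the lines the block gave 1 higher and 1 lower in each state, against 10.6% and 8.79% of all genes with TNFα and 9.17% and 7.31% without it, the higher one being ITGAV in DKD cells (log2 0.38 with TNFα and 0.56 without, adjusted p = 0.00358 and 0.000478; 0.291 and 0.123 without the block). With the libraries numbered 2 and 3 alone 5 rose with TNFα in DKD cells (5.66% of all genes). In those libraries 4 rose and 1 fell in CTL cells (7.88% and 5.91%). Between the lines 2 were higher in DKD TNFα than in CTL TNFα cells (8.58%). The rises in each line again include ITGAM.

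None of the 8 tested of 9 other laminin chains changed in any comparison. Their median change with TNFα was -0.013 in DKD and -0.32 in CTL cells, with no called member under the block either. With the libraries numbered 2 and 3 alone 1 chain was lower in DKD cells in each state. The shares of all genes there were 6.14% with TNFα and 5.13% without it. Of 26 other matrix ligands 15 were tested. FGG, the γ chain of fibrinogen, was the only one called with TNFα. It was lower in each line, against 0.254% of genes tested that fell in DKD cells and 0.726% in CTL cells. FGG fell to 837, 552 and 455 CPM in DKD TNFα libraries, against 2115, 1749 and 1748 CPM in DKD untreated libraries. It fell to 106, 143 and 98.6 CPM in CTL TNFα libraries, against 274, 406 and 371 CPM in CTL untreated libraries. The log2 changes were -1.61 (SE 0.23, adjusted p = 0.00484) in DKD and -1.59 (SE 0.23, adjusted p = 0.00449) in CTL cells, the opposite direction to FN1, another plasma protein of the liver. The fall with TNFα was not particular to FGG. Of the 8 hepatocyte markers AFP and APOA1 were also called lower with TNFα in both lines and ALB in DKD cells, and none was called higher. Between the lines FGG was higher in DKD cells by 2.40 with TNFα and 2.42 without (adjusted p = 0.000217 and 0.000243). FBN1, the microfibril protein fibrillin, was lower in DKD cells, at 7.46 ± 1.73 CPM in DKD TNFα against 25.4 ± 0.87 CPM in CTL TNFα cells, and 6.84 ± 1.41 CPM in DKD untreated against 21.6 ± 1.098 CPM in CTL untreated cells (log2 -1.77 and -1.66, adjusted p = 0.000254 and 0.000494). NPNT, a basement membrane ligand of integrins, was lower by -0.74 with TNFα and -0.72 without (adjusted p = 0.000211 and 0.000298), and COL6A1 was higher with TNFα (log2 1.20, adjusted p = 0.00683), at 2.74 CPM in DKD TNFα against 1.19 CPM in CTL TNFα cells. Without TNFα COL6A1 was at 0.72 (adjusted p = 0.0917; 0.0412 under the block, 0.0343 in DESeq2 and 0.0486 with the libraries numbered 2 and 3 alone). Of the 15 ligands 2 were thus called higher and 2 lower in DKD than in CTL cells with TNFα, against 3.94% and 2.30% of genes tested. Without TNFα 1 was higher and 2 lower, against 3.13% and 1.86%. The FGG, FBN1 and NPNT calls held in both states without each library in turn. Of the 8 hepatocyte markers 3 (ALB, APOA1 and TTR) were also called higher in DKD cells in each state, and their part in the FGG difference was not tested. Under the block the ligands counted 1 of 15 higher and 1 lower with TNFα in DKD cells (5.55% and 2.13% of all genes) and 2 higher and 1 lower in CTL cells (7.94% and 4.7%). Between the lines it gave 4 higher and 2 lower in DKD than in CTL cells with TNFα (10.6% and 8.79% of all genes), and 3 higher and 4 lower without it (9.17% and 7.31%). With the libraries numbered 2 and 3 alone 1 rose and 1 fell with TNFα in each line. The shares of all genes there were 5.66% and 2.77% in DKD cells and 7.88% and 5.91% in CTL cells. In those libraries 3 were higher and 3 lower in DKD than in CTL cells with TNFα (8.58% and 6.14%). Without it 3 were higher and 2 lower (7.16% and 5.13%).

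Of 18 other matrix receptors and tetraspanins 15 were tested. SDC4, a heparan sulphate proteoglycan that acts with integrins as a fibronectin receptor, measured 206, 281 and 265 CPM in DKD TNFα libraries, against 76.7, 118 and 107 CPM in DKD untreated libraries. It measured 256, 396 and 351 CPM in CTL TNFα libraries, against 82.6, 139.7 and 127 CPM in CTL untreated libraries. It was the only one of this list called with TNFα, against 1.54% of genes tested that rose in DKD cells and 1.90% in CTL cells. SDC4 was higher by 1.32 (SE 0.23, adjusted p = 0.0164) in DKD and 1.52 (SE 0.24, adjusted p = 0.00639) in CTL cells. The DKD call was lost without DKD untreated 3, DKD TNFα 2 or DKD TNFα 3 (adjusted p of up to 0.0889). DDR2, a collagen-binding tyrosine kinase, was higher in DKD TNFα than in CTL TNFα cells (23.3 ± 4.18 against 9.76 ± 2.25 CPM, log2 1.26, adjusted p = 0.00898). It was the only one of this list called between the lines, against 3.94% of genes tested that were higher with TNFα. In untreated cells DDR2 was at 0.88 (adjusted p = 0.0595; 0.00167 under the block, 0.00866 in DESeq2 and 0.0399 with the libraries numbered 2 and 3 alone). Fibroblast markers summed to 33.8 to 47.8 CPM in DKD TNFα and 27.8 to 34.7 in DKD untreated, against 23.8 to 29.1 in CTL TNFα and 25.1 to 28.0 in CTL untreated libraries, and 7 of the 8 stayed under 1 CPM, with only ACTA2 called, higher in DKD TNFα than in CTL TNFα cells (log2 0.65, adjusted p = 0.0272); their part in the differences of FN1, COL6A1 and DDR2 was not tested. Under the block this list counted 2 of 15 higher with TNFα in DKD cells (5.55% of all genes) and 3 higher and 3 lower in CTL cells (7.94% and 4.7%). Between the lines it gave 1 higher and 2 lower in each state, against 10.6% and 8.79% of all genes with TNFα and 9.17% and 7.31% without it. With the libraries numbered 2 and 3 alone 3 rose with TNFα in DKD cells (5.66% of all genes). In those libraries 4 rose and 1 fell in CTL cells (7.88% and 5.91%). Between the lines 2 were higher and 3 lower in DKD TNFα than in CTL TNFα cells (8.58% and 6.14%). In untreated cells 1 was higher and 2 lower (7.16% and 5.13%).

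Of 39 integrin activators and focal adhesion proteins, 37 were tested. With TNFα 1 rose in DKD cells (1.54% of genes tested), and 2 rose and 1 fell in CTL cells (1.90% and 0.726%). Between the lines 2 were higher and 1 lower in DKD than in CTL cells with TNFα (3.94% and 2.30% of genes tested), and 2 were lower without it (1.86%). With TNFα in CTL cells VCL (log2 0.52, adjusted p = 0.0228) and TLN1 (log2 0.36, adjusted p = 0.0437), which link integrins to actin, rose and TLN2 fell (log2 -0.68, adjusted p = 0.0187). In DKD cells FERMT2, a kindlin that activates integrins, rose with TNFα (log2 0.51, adjusted p = 0.0147). In CTL cells FERMT2 was at 0.32 (adjusted p = 0.0996, and 0.0264 under the block, 0.0207 in DESeq2 and 0.00899 with the libraries numbered 2 and 3 alone). VCL in DKD cells was at 0.42 (adjusted p = 0.0769, and 0.00355, 0.0129 and 0.00799 in the same order). TLN1 and TLN2 in DKD cells were at 0.17 and -0.36 (adjusted p = 0.52 and 0.279, and 0.0949 and 0.0216 under the block). These calls in 1 line are not shown to be differences between the lines. FERMT2 was also higher in DKD TNFα than in CTL TNFα cells (log2 0.43, adjusted p = 0.0145), as was the kinase PTK2B (log2 0.73, adjusted p = 0.0433), while the scaffold GIT1 was lower (log2 -0.44, adjusted p = 0.0165). Without TNFα the scaffold NEDD9 (log2 -0.79, adjusted p = 0.0333) and GIT1 (log2 -0.39, adjusted p = 0.0377) were lower in DKD cells. None of these calls held without each of the 12 libraries in turn. With TNFα in CTL cells, VCL lost its call without any CTL library other than CTL TNFα 1 (adjusted p of up to 0.152), TLN2 without any other than CTL untreated 1 (up to 0.0948), and TLN1 kept its call only without DKD untreated 1 or DKD TNFα 1 (up to 0.235). FERMT2 lost its call with TNFα in DKD cells without DKD untreated 2 or 3 or DKD TNFα 2 or 3 (up to 0.0844), and between the treated lines without any CTL TNFα library or DKD TNFα 2 (up to 0.067). PTK2B kept its call only without CTL untreated 1 or DKD untreated 1 (up to 0.137), and GIT1 lost its call with TNFα without CTL TNFα 1 or 3 or DKD TNFα 1 or 2 (up to 0.0793). Without TNFα, GIT1 kept its call only without CTL TNFα 2 or 3 or DKD TNFα 1 or 3 (up to 0.123), and NEDD9 lost its call without CTL untreated 1 or 2, DKD untreated 2 or 3 or CTL TNFα 1 (up to 0.123). With the libraries numbered 2 and 3 alone the GIT1 and NEDD9 calls without TNFα were lost (adjusted p = 0.101 and 0.0583). In those libraries the list counted 4 higher and 1 lower with TNFα in DKD cells (5.66% and 2.77% of all genes). In CTL cells it counted 13 higher and 2 lower (7.88% and 5.91%). Between the lines it counted 3 higher and 4 lower in DKD cells with TNFα (8.58% and 6.14%). Without TNFα the list counted 2 higher and 1 lower (7.16% and 5.13%). Under the block it counted 5 higher and 1 lower with TNFα in DKD cells (5.55% and 2.13% of all genes) and 11 higher and 2 lower in CTL cells (7.94% and 4.7%). Between the lines the block gave 4 higher and 10 lower in DKD than in CTL cells with TNFα (10.6% and 8.79% of all genes), and 3 higher and 4 lower without it (9.17% and 7.31%). The median change of the list with TNFα was 0.099 in DKD and 0.17 in CTL cells.

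**Figure D5:**
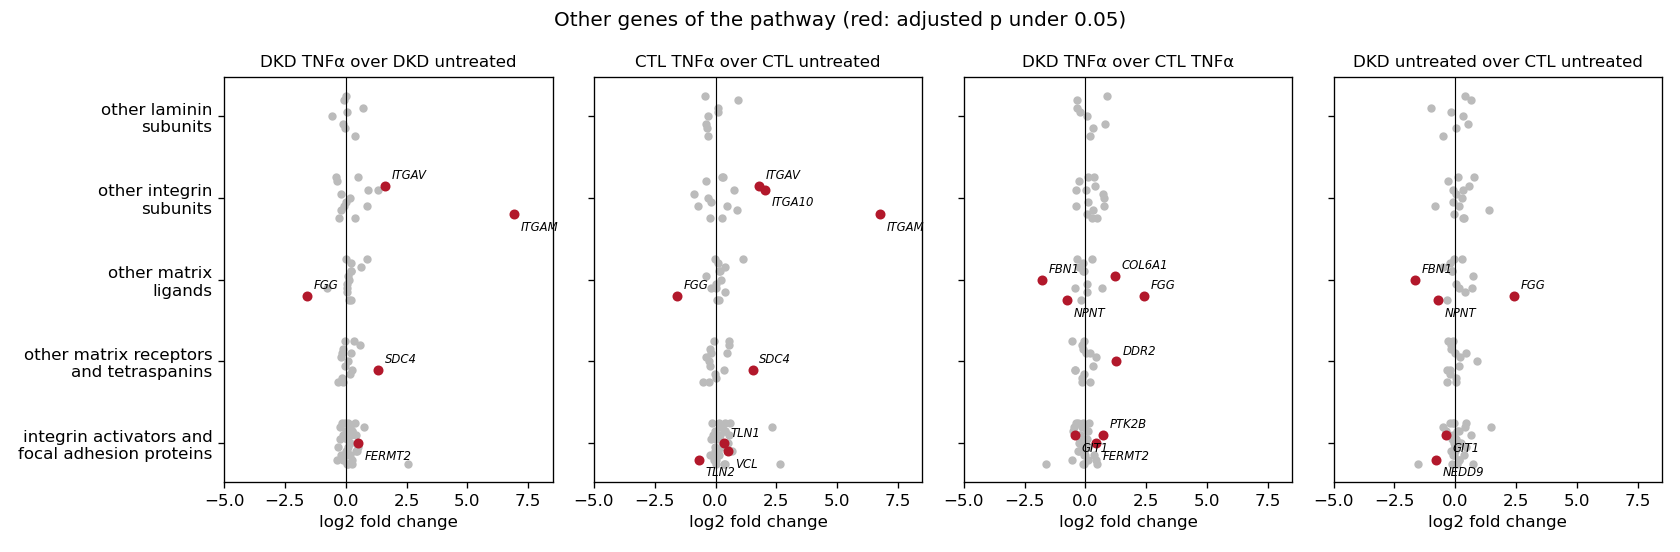
Log2 fold changes from edgeR of the tested genes of 5 lists of other matrix and adhesion genes in 4 comparisons, red and named where the adjusted p was under 0.05 and grey otherwise. ITGAV, ITGAM and SDC4 lie to the right with TNFα in both lines, FGG to the left with TNFα and to the right in DKD over CTL cells.

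The genes whose pattern over the 12 libraries was nearest to FN1 were C3, MR1 and TAP1, among 11150 genes with an average log2 CPM of at least 2. Genes named only for a clone, locus, intergenic non-coding transcript or open reading frame were left out of these candidates. Likeness was the root mean square difference of log2 CPM (prior count 2) after each gene's mean was subtracted, and it was 0.116, 0.129 and 0.146 for these genes, against a median of 0.655 over all candidates. C3, a complement component, had log2 changes with TNFα of 1.04 in DKD and 1.07 in CTL cells, and differed by 0.42 with TNFα and 0.45 without it between DKD and CTL cells. The genes nearest to ITGA2 were GMIP, IER3 and ZNF641, at 0.234, 0.236 and 0.27 against a median of 0.754. GMIP had log2 changes with TNFα of 0.99 in DKD and 1.52 in CTL cells, and differed by -0.83 with TNFα and -0.30 without it between DKD and CTL cells. The genes were picked for this likeness, so no test is given.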

How the data were processed

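Estimated counts per gene symbol, whole numbers as deposited by the authors, were analysed. The submitters' processing notes name Salmon 0.14.0, CASAVA 1.7, DESeq2 and the build GRCh38/hg38. The sources used here give neither annotation nor strand setting, nor how transcripts were summed to genes. Reads of LAMB1 and LAMA5 could therefore mix with those of DLD and ADRM1, which overlap them on the opposite strand. A second deposited table holds the same counts divided by a factor per library and was not used. Of the 35984 genes 10456 had no count in any library.

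Counts were tested with edgeR 4.0.16 (R 4.3.3) using TMM factors, filterByExpr (minimum count 10, minimum total 15), 1 mean per group over all 12 libraries (8 residual degrees of freedom) and the quasi-likelihood test, adjusted by Benjamini-Hochberg over 16118 genes. CPM uses TMM factors, and 1 count was worth 0.0238 to 0.032 CPM. The script was tested on simulated data. Alternatives were RLE size factors, no filter, DESeq2 1.42.0, the replicate number as a block, only the groups compared, libraries 2 and 3 alone, and each library left out. Same-numbered libraries deviated together (correlations of 0.193 to 0.695 over genes, each library nearest to its own number in all 4 comparisons). The labels state no pairing, which is read here from the numbers in the titles alone. The main fit therefore has no block, and the fit with the block is an alternative. Calls and missed thresholds are those of the main fit unless another fit is named. The named genes are the 10 genes, up to 4 called genes with the smallest p from each list and comparison, and the 3 nearest patterns to FN1 and ITGA2. The genes and lists were chosen with earlier results of these data known. Motifs were searched in the 250 bases before the RefSeq start.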

Additional observations from a re-analysis of the deposited data

How the results depend on the processing

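Of 889 values of the 10 genes under the alternatives, 759 kept their direction and their side of the threshold, 79 missed it, 16 newly passed it and 35 changed sign. RLE size factors changed no call of these genes, and the replicate block changed no call other than those given with the results. The counts of all genes called moved with the test. For TNFα in knock-down cells (289) they were 629 with DESeq2, 1237 with the replicate block, 41 with only the groups compared and 1360 with libraries 2 and 3 alone. For TNFα in control cells (423) they were 995, 2037, 691 and 2225 in that order. For the knock-down without TNFα (803) they were 1395, 2657, 332 and 1983, and for the knock-down with TNFα (1005) 1720 with DESeq2, 3133 with the block and 2375 with libraries 2 and 3 alone. For the interaction DESeq2 called 5 genes.

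Of the 10 genes, TNFα in knock-down cells gave 2 without the filter and 1 with only the groups compared. The knock-down without TNFα gave 4 with DESeq2, 7 with the block and 0 with only the groups compared; in that last case edgeR's unadjusted p was under 0.05 for 6 of them. The knock-down with TNFα gave 3 without the filter, 8 with the block and 2 with only the groups compared.

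Leaving out each library gave 127 to 357 genes, 1 to 4 of the 10, for TNFα in knock-down cells; 149 to 709, 2 to 4 of the 10, for TNFα in control cells; 423 to 917, 1 to 2 of the 10, for the knock-down without TNFα; 572 to 1545, 2 to 5 of the 10, for the knock-down with TNFα; and 0 to 1, with 0 of the 10, for the interaction. No value that changed sign was called. Over the libraries left out, LAMA5 ranged from -0.068 to 0.058 for TNFα in control cells and from -0.10 to 0.12 for the knock-down with TNFα (0.0011 with only the groups compared), and ITGA5 from -0.79 to 1.34 for the knock-down without TNFα. For the interaction, LAMC1 ranged from -0.063 to 0.097 (-0.018 with libraries 2 and 3 alone), ITGA3 from -0.37 to 0.36 (0.00015 without the filter, 0.0030 with DESeq2 and 0.077 with libraries 2 and 3 alone), FN1 from -0.048 to 0.088, ITGB1 from -0.098 to 0.048 and ITGA5 from -1.94 to 0.19; ITGA6 was -0.026 with libraries 2 and 3 alone. The cause of these changes was not tested. ITGA5 had 1 to 32 counts per library and ITGA3 25 to 177, and the part of these low counts was not tested.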
